A study of Mus musculus with 7 samples.

Results

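The major secreted proteins of mouse milk were followed in transplanted mammary tumours of the Met1 and DB7 lines. The members were the whey protein genes Lalba and Wap, the casein genes Csn1s1, Csn1s2a, Csn2 and Csn3, and Glycam1, a mucin-like protein of milk. Every probe set of the array whose only annotated symbol was one of these 7 genes was taken, which gave 12 of the 22690 probe sets. The genes were picked as milk proteins of the mammary alveolus and not by a measured value, although earlier results of these data were known. Total RNA of 3 Met1 and 4 DB7 transplant tumours had been hybridised to 1-colour Affymetrix arrays, 1 array per tumour sample, as the sample labels give it. The series' design text instead describes mammary tumours of outcrossed first-generation mice, a conflict that could not be settled here, and the sample labels were followed in every comparison. As background, both lines descend from mice in which polyoma middle T antigen drives mammary tumours, Met1 readily metastatic and DB7, from a mutant form of the antigen, seldom so. The labels give no host strain, sex, age, reproductive state or treatment of the recipients, and no time of collection. Whether each sample came from a separate animal is not stated either, so the p-values reflect sample-to-sample spread that can be partly technical.

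Caseins assemble in the Golgi into micelles that carry calcium phosphate. The calcium-sensitive caseins, encoded by Csn1s1, Csn1s2a and Csn2, fill the micelle, and kappa-casein, encoded by Csn3, coats and stabilises it. Whey proteins stay in solution. In the lactating gland prolactin, acting through STAT5 together with glucocorticoid, induces these genes to very high levels, and their transcripts serve as markers of alveolar differentiation.

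The 7 arrays had closely similar distributions, with medians between 6.53 and 6.61 on the log2 scale. Of 9 luminal epithelial markers, Krt8 lay between 11.47 and 12.03 and Epcam between 11.42 and 12.14, while Krt19 lay between 5.77 and 6.77, above the array median on only 2 arrays. Cldn7, a tight junction claudin, measured 9.65, 10.26 and 9.92 in Met1, against 5.76, 5.29, 5.48 and 5.64 in DB7, below the array median throughout DB7 (difference 4.399, SE 0.16; limma, adjusted p = 8.25e-07). Krt18, Krt7, Epcam and Cldn4 were called lower in Met1, by differences of -1.01, -1.79, -0.48 and -1.47. The mean of the 9 ran from 9.35 to 9.71 in Met1, against 9.46 to 9.61 in DB7. Basal markers averaged 6.41 to 6.504 in Met1, against 6.17 to 6.40 in DB7 (8 genes, 1 higher), and skeletal muscle markers 5.19 to 5.33 in Met1, against 5.20 to 5.32 in DB7 (7 genes, 1 higher). Of 8 salivary gland genes, 2 were higher and 1 lower, and their mean ran from 5.66 to 6.24 in Met1, against 5.72 to 6.30 in DB7. These near means hid large opposite differences. Pip, a secreted protein of salivary and other glands, measured 7.85, 8.17 and 10.16 in Met1, against 5.23, 5.48, 5.23 and 5.76 in DB7 (difference 3.30, SE 0.47; limma, adjusted p = 0.00148). The second probe set of Pip differed by 0.37 and was not called. Bpifa2, a salivary protein, measured 4.53, 5.84 and 6.43 in Met1, against 10.99, 10.64, 9.87 and 7.86 in DB7 (difference -4.24, SE 0.71; adjusted p = 0.00347). Pip, like Lalba and Wap, was highest in Met1 3, and Smr2 was the other gene called higher. The part of these cell types in the milk protein values was not tested. The 2 kinds of tumour were compared with limma over all 22626 non-control probe sets, and a probe set was called at a Benjamini-Hochberg adjusted p under 0.05. Of all probe sets, 17.8% were called, 7.92% as higher and 9.87% as lower in Met1, and of all 12393 genes 18.9%. In bulk tumours fewer cells of a type and less RNA per cell cannot be told apart. The arrays DB7 1 and DB7 4 stood apart by B cell transcripts, and results that turn on them are given with and without them.

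Milk protein transcripts were mostly higher in Met1. The whey proteins Lalba and Wap, kappa-casein, alpha-s1-casein and 2 of the 4 probe sets of Csn1s2a were called higher, while beta-casein and Glycam1 did not pass the test. The measured folds give no order among the genes, because some probe sets lay near the top of the arrays' range and others near the bottom. In all, 7 of the 12 probe sets, from 5 of the 7 genes, were called higher, 0 were called lower and 5 were not called. The same 7 probe sets had Met1 values that all lay above the DB7 values. Across the array, 11.2% of probe sets had every Met1 value above every DB7 value, and 27.5% had no overlap in either direction. The median difference, Met1 minus DB7, was 0.88 over the 12 probe sets and -0.05 over all probe sets.

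**Figure D1:**
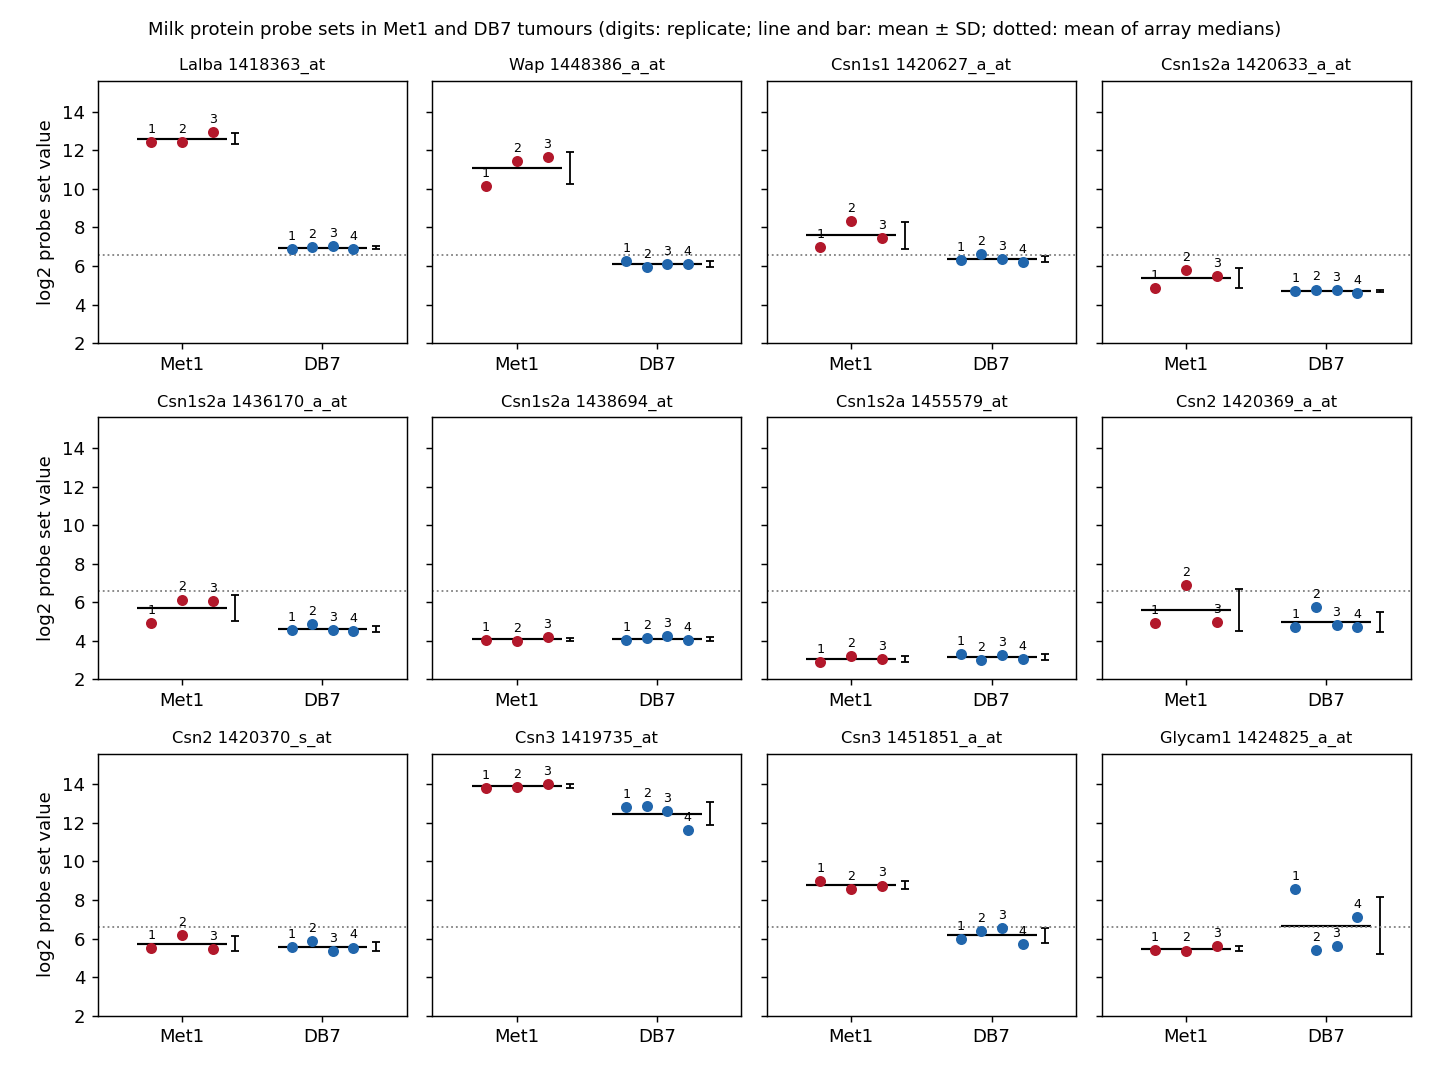
Value of each milk protein probe set (log2, vertical axis) on the 3 Met1 arrays (red, left) and the 4 DB7 arrays (blue, right), with replicate numbers, the mean (line), the SD (bar) and the mean of the array medians (dotted). Lalba, Wap and both probe sets of Csn3 separate widely, whereas Csn2 is high on array 2 of each line and Glycam1 on DB7 1 and DB7 4 only.

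Lalba encodes alpha-lactalbumin, the whey protein that turns the galactosyltransferase B4galt1 towards lactose synthesis. Its probe set measured 12.43, 12.44 and 12.96 on the 3 Met1 arrays, against 6.90, 6.99, 7.05 and 6.88 on the 4 DB7 arrays (log2). The lowest Met1 array lay 5.38 above the highest DB7 array, a gap far wider than the spread inside either line. The difference was 5.65 (SE 0.13; 95% interval 5.36 to 5.95; limma, adjusted p = 9.65e-08), or 50.3-fold. The exact permutation test over the 35 divisions of the arrays gave p = 0.0286 (two-sided), the smallest it allows. Lalba lay above the array median on all 7 arrays, and within DB7 its SD was 0.08 (n = 4). In DB7 it lay only 0.27 to 0.44 above the array medians. Without detection calls that level cannot be told from background, so the fold is approximate.

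Wap encodes whey acidic protein, a major whey protein of rodents with the fold of small protease inhibitors. It measured 10.14, 11.43 and 11.67 in Met1, against 6.28, 5.93, 6.12 and 6.10 in DB7. The groups did not overlap, and Met1 1 stood more than 1 log2 unit below the other Met1 arrays. All 4 DB7 values lay below their array medians, where probe set summaries compress differences, so the fold is approximate. Wap was 31.3-fold higher in Met1 (difference 4.97, SE 0.31; limma, adjusted p = 1.7e-05; exact permutation p = 0.0286). The spread among Met1 tumours was wider for Wap (SD 0.82) than for Lalba (SD 0.30, n = 3 each), a contrast that was not tested.

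The start regions of both whey protein genes are shown because their probe sets had the highest measured differences of the 12. They are 300 bases long, from 250 before to 50 after the annotated start of transcription, on the gene's strand, from RefSeq (GRCm38.p6). Capitals mark matches to TTCNNNGAA, the core that STAT5 binds, or to TTNNGNAA, a loose C/EBP core, on either strand. The Lalba region lies at chr15:98482634-98482933 (minus strand) and the Wap region at chr11:6638600-6638899 (minus strand).
Lalba: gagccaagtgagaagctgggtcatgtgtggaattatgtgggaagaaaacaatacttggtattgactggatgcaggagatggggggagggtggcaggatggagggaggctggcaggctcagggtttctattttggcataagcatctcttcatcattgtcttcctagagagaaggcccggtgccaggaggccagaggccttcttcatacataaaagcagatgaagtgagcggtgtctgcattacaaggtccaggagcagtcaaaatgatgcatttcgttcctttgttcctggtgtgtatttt
Wap: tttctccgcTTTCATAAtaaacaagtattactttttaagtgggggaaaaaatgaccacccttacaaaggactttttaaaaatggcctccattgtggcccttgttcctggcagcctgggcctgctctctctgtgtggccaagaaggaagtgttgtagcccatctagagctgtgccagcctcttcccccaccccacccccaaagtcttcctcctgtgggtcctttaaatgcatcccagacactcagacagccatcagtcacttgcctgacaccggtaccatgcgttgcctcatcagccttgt
The Wap region held 1 match to the C/EBP core, TTTCATAA at 241 to 234 bases before the start, and the Lalba region held 0 matches to either core. Of all 32851 annotated start regions of this length, 8.3% held the STAT5 core and 40.7% the C/EBP core. The absence of these letters from a window says nothing about binding elsewhere at the gene.

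Csn3 encodes kappa-casein, the stabiliser of the micelle surface, and was measured by 2 probe sets. The brighter, 1419735_at, read 13.82, 13.87 and 14.02 in Met1, against 12.83, 12.87, 12.64 and 11.62 in DB7. On each Met1 array this was the highest value of the whole array, so it lay at the upper end of what the arrays recorded, where differences are compressed. It was 2.67-fold higher in Met1 (difference 1.41, SE 0.27; limma, adjusted p = 0.00678), and DB7 4 was the lowest array. The second probe set, 1451851_a_at, read 8.99, 8.58 and 8.75 in Met1, against 5.98, 6.38, 6.57 and 5.72 in DB7. It was 6.11-fold higher in Met1 (difference 2.61, SE 0.20; limma, adjusted p = 4.62e-05). All its DB7 values lay below their array medians, where differences are compressed, so this fold is approximate. Both probe sets separated the lines without overlap, and their 95% intervals, 0.81 to 2.02 for the brighter and 2.17 to 3.05 for the second, did not meet.

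Csn1s1, the gene of alpha-s1-casein, is the first gene of the casein cluster. It measured 6.97, 8.35 and 7.48 in Met1, against 6.30, 6.62, 6.34 and 6.20 in DB7. Met1 2 was the highest array and Met1 1 the lowest of its line, only 0.35 above the highest DB7 value, that of DB7 2. Csn1s1 was 2.35-fold higher in Met1 (difference 1.23, SE 0.27; limma, adjusted p = 0.0131; exact permutation p = 0.0286). Without DB7 1 and DB7 4 the difference was 1.12 and was no longer called (adjusted p = 0.0858), in a fit with fewer arrays.

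Csn1s2a, the gene of an alpha-s2-like casein once called gamma-casein, had 4 probe sets that disagreed. The probe set 1436170_a_at read 4.91, 6.15 and 6.07 in Met1, against 4.54, 4.87, 4.54 and 4.52 in DB7. The probe set 1420633_a_at read 4.84, 5.81 and 5.49 in Met1, against 4.71, 4.78, 4.74 and 4.62 in DB7. In both, Met1 2 and Met1 3 stood apart, while Met1 1 lay just above the highest DB7 array, by 0.04 and 0.06. They were 2.12-fold (difference 1.09, SE 0.27; limma, adjusted p = 0.0211) and 1.59-fold higher in Met1 (0.67, SE 0.19; adjusted p = 0.039). The calls were fragile: leaving out single arrays ended that of 1436170_a_at in 4 of 7 fits and that of 1420633_a_at in 6 of 7. These arrays were Met1 2 (adjusted p = 0.0999 and 0.135), Met1 3 (0.101 and 0.145), DB7 3 (0.0639 and 0.0881) and DB7 4 (0.055 and 0.0911), and for 1420633_a_at also DB7 1 (0.0678) and DB7 2 (0.0649). The other 2 probe sets, 1438694_at and 1455579_at, ran between 2.92 and 4.24 on all arrays and differed by -0.03 (SE 0.08) and -0.09 (SE 0.09). All 4 lay below the array median on every array, so the folds are approximate. In that range of signal 3.02% of all probe sets were called higher in Met1.

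Csn2 encodes beta-casein, in mice an abundant casein of milk. Its probe set 1420369_a_at read 4.93, 6.88 and 4.99 in Met1, against 4.71, 5.76, 4.80 and 4.71 in DB7. A single array of each line, Met1 2 and DB7 2, stood above the rest, and the lines overlapped. The second probe set, 1420370_s_at, showed the same 2 arrays highest, at 5.53, 6.17 and 5.47 in Met1, against 5.54, 5.89, 5.38 and 5.54 in DB7. The differences were 0.61 (SE 0.46; 95% interval -0.43 to 1.65; limma, adjusted p = 0.426) and 0.14 (SE 0.18; interval -0.27 to 0.54; adjusted p = 0.665). Apart from 1420369_a_at in Met1 2, all these values lay below the array median, where differences are compressed. Without Met1 2 the 2 differences were -0.033 and -0.088, so their direction rested on that array.

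The adjoining genes Csn1s1 and Csn2 are shown next because the first passed the test and the second did not. The regions lie at chr5:87665958-87666257 (plus strand) and chr5:87699376-87699675 (minus strand), with capitals as above.
Csn1s1: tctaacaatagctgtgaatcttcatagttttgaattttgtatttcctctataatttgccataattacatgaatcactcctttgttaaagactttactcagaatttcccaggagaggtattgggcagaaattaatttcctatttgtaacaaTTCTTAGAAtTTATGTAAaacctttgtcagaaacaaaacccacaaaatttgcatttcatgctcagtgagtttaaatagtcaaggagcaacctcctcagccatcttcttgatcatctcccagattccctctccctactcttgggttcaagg
Csn2: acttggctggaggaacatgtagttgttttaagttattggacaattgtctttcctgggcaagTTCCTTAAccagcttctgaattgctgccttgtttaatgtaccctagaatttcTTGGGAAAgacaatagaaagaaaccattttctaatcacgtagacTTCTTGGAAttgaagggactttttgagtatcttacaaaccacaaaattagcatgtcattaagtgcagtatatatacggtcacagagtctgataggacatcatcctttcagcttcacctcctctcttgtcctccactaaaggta
Each held 1 STAT5 core, TTCTTAGAA at 100 to 92 bases before the start of Csn1s1 and TTCTTGGAA at 93 to 85 bases before that of Csn2. A C/EBP core, TTATGTAA, followed 1 base after the STAT5 core of Csn1s1, and Csn2 held 2 matches further upstream. The STAT5 core was also found in the regions of Glycam1 (TTCCCAGAA, 145 to 137 bases before the start) and Csn1s2a (TTCTTAGAA, from base 21 to base 29 counted from the start). No match overlapped another. The full palindromic motif of nuclear factor I and the letters TATAAA were in 0 of the 6 member regions read, against 0.0365% and 13.6% of all regions. These matches are descriptions of the letters only, and binding was not measured.

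**Figure D2:**
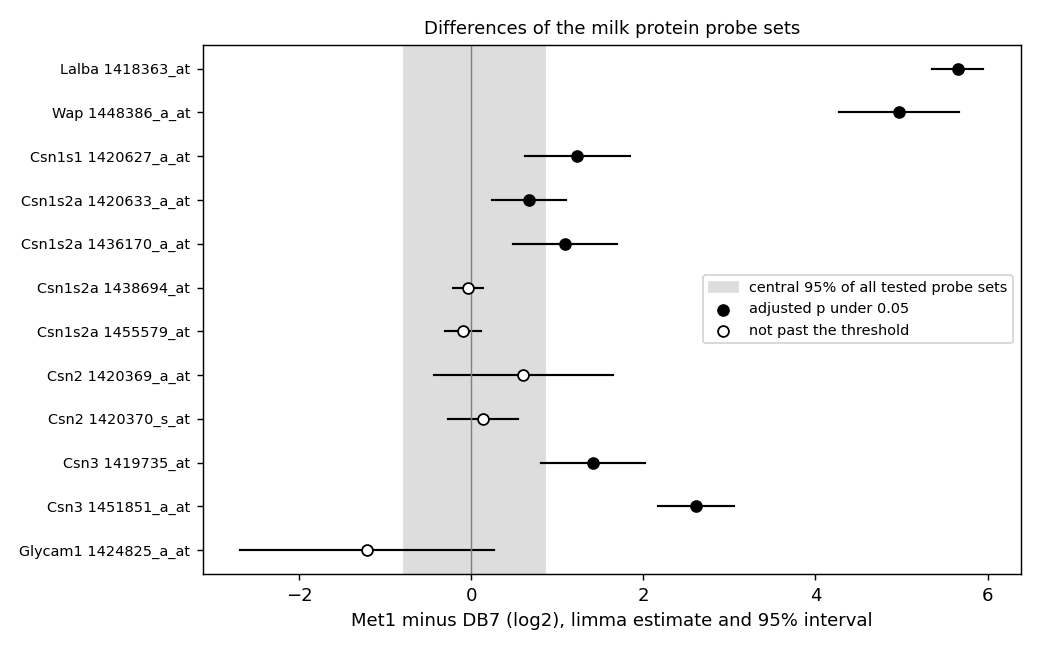
Difference Met1 minus DB7 (log2) of each milk protein probe set with its 95% interval, filled where the adjusted p is under 0.05. The grey band, from -0.78 to 0.86, holds the central 95% of all tested probe sets, and the points of Lalba, Wap, Csn1s1, both Csn3 probe sets and Csn1s2a 1436170_a_at lie to its right.

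The order of the arrays inside each line differed between caseins. Among the 9 casein probe sets, Met1 2 held the highest Met1 value in 6, all of Csn1s1, Csn1s2a or Csn2. Csn3 did not share this: 1419735_at was highest in Met1 3, as were Lalba and Wap, and 1451851_a_at was highest in Met1 1 and lowest in Met1 2. Met1 1 held the lowest Met1 value in 6 of the 9, and also for Lalba and Wap. In DB7, array 2 held the highest value in 6 and array 4 the lowest in 6. The probe sets are not independent, since several measure 1 gene. Adipocyte markers also differed among the Met1 arrays, their mean over 5 genes being 5.79 in Met1 1, 7.07 in Met1 2 and 6.55 in Met1 3, the order of Csn1s1 and of the called Csn1s2a probe sets. Fabp4, a fatty acid carrier of adipocytes, measured 7.86, 9.91 and 9.36 there. In DB7 the adipocyte mean was highest in DB7 1, at 7.26, where 1 of the 9 casein probe sets (Csn1s2a 1455579_at, 3.30) had its highest DB7 value, and lay between 5.83 and 6.45 in the other 3 arrays. Their part in the casein values was not tested.

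Glycam1 encodes a mucin-like glycoprotein that is secreted into milk and is also made by the high endothelial venules of lymph nodes, where it binds L-selectin. It was the member that went the other way. It measured 5.41, 5.38 and 5.61 in Met1, against 8.58, 5.41, 5.61 and 7.11 in DB7. Only DB7 1 and DB7 4 were high, and DB7 2 and DB7 3 lay inside the Met1 range. The difference of -1.21 (SE 0.65; 95% interval -2.69 to 0.27) did not pass (limma, adjusted p = 0.255; exact permutation p = 0.286). Without these 2 arrays it was -0.04 (SE 0.11), and without DB7 1 alone -0.57.

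Lymphoid markers were high on the same 2 arrays. The mean of 10 B and plasma cell genes was 5.73 to 5.85 in Met1, against 6.67 in DB7 1, 6.88 in DB7 4 and 5.82 and 6.003 in DB7 2 and DB7 3. Jchain, the joining chain of secreted immunoglobulins, reached 8.33 and 9.33 in DB7 1 and DB7 4, against 5.08 to 5.88 elsewhere. T cell genes ran from 5.71 to 5.84 in Met1, against 5.82 to 6.18 in DB7, over 9 genes. Of the markers of high endothelium itself, Madcam1 lay between 5.03 and 5.15 on all 7 arrays. Chst4, a sulfotransferase that modifies L-selectin ligands, lay between 3.55 and 3.98 with DB7 1 highest. Both were below the median of every array, where differences are compressed. Ltb, also below every array median, measured 6.17 in DB7 1 and 6.02 in DB7 4, against 5.42 to 5.62 elsewhere. Cxcl13 was highest in DB7 4, at 8.37, and Fut7 in DB7 3, at 7.03. Gcnt1, a glycosyltransferase of mucin-type chains, was 1.77 lower in Met1 on the log2 scale (difference -1.77, SE 0.18; limma, adjusted p = 0.000256), with all 4 DB7 arrays high. The mean of the 6 high endothelium and lymph node stroma genes measured was 5.58 to 5.71 in Met1, against 5.998 to 6.17 in DB7. That mean includes Gcnt1, the only 1 of the 6 that was called. The other 5 were not called, and each overlapped between the lines. The part of lymphoid tissue in the Glycam1 values was not tested.

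**Figure D3:**
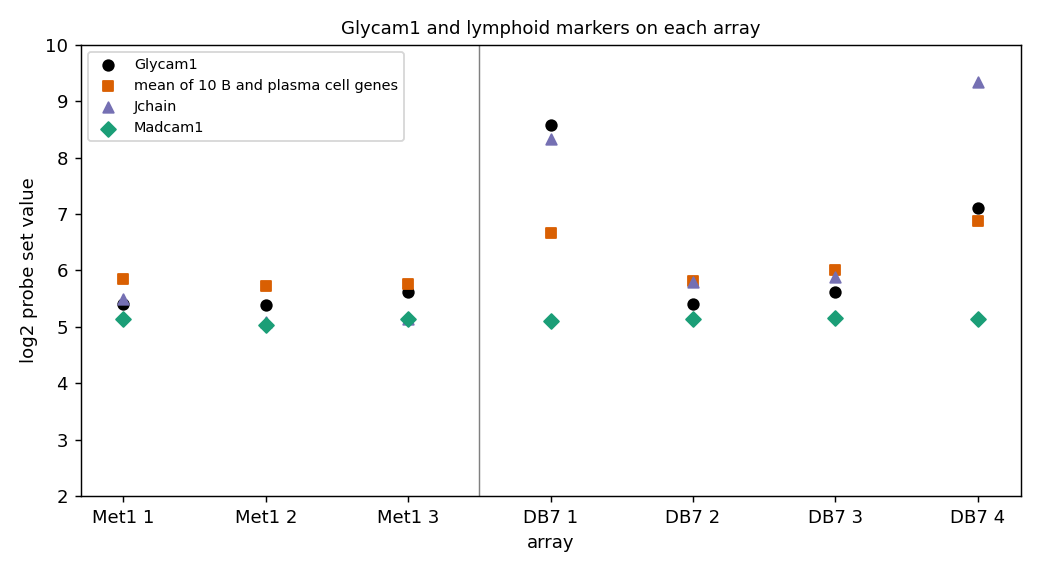
Values (log2) of Glycam1, Jchain and Madcam1 and the mean of 10 B and plasma cell genes on each array, Met1 left of the line and DB7 right. Glycam1, Jchain and the B cell mean are highest on DB7 1 and DB7 4, while Madcam1 stays between 5.03 and 5.15, below every array median.

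Genes whose profile over the 7 arrays was closest to each member were sought among 12386 other genes, by the root mean square distance between centred log2 profiles. For Lalba, whose own profile had a root mean square spread of 2.80, the closest were Clca3a2 (0.37), Igfbp5 (0.42) and Muc15 (0.46). Muc15 (0.25), Sectm1a (0.25) and Mup5 (0.26) were closest to Wap, against a spread of 2.499. Dmkn (0.23), Lyve1 (0.27) and Tubb2a (0.30) were closest to Csn1s1, against a spread of 0.72. Lyve1, a receptor of lymphatic endothelium, was also the closest to Csn1s2a (0.24), with 4.71, 5.91 and 5.35 in Met1, against 4.60, 4.54, 4.32 and 4.58 in DB7. Dkkl1 (0.26) and Acot1 (0.26) came next for Csn1s2a, against a spread of 0.66. Closest to Csn3 were Tmed10 (0.21), a cargo receptor of the early secretory pathway, 2310057J18Rik (0.22) and 4931406C07Rik (0.24), against a spread of 0.80. The probe set of Csn2 with the higher mean had a spread of only 0.26, and Ube2e1, Ciao2a and Lypla1 lay within 0.14 of it. For Glycam1 all 3 were genes of B lineage cells, Igkv6-14 (0.53), Ighm (0.68) and Pou2af1 (0.73), against a spread of 1.14. With so many genes searched over 7 arrays, such ranks describe these arrays only.

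The chromosomal neighbours of the milk protein genes were examined next. The caseins lie in 1 cluster on chromosome 5. Of the 24 other protein-coding genes within it or among the 10 on each side, 15 were measured, and 1 was called higher, 1 lower and 13 not called, against 8.25% of all 12393 genes called higher and 10.7% lower. The 1 higher gene was Smr2, a submaxillary gland protein gene beyond Csn3 (difference 1.27, SE 0.15; limma, adjusted p = 0.000599), whose other probe sets differed by 2.05 and 1.24, and the 1 lower gene was Utp3. Jchain, high in DB7 1 and DB7 4, also lies there and was not called (difference -2.10, SE 0.79; limma, adjusted p = 0.106). Csn1s2b, the remaining casein gene of the cluster, measured 4.76 ± 0.13 in Met1 and 4.75 ± 0.07 in DB7 (SD, n = 3 and 4), below the median of every array, and was not called. Around Wap on chromosome 11, 0 of 12 measured neighbours were called higher and 2 lower. Around Lalba on chromosome 15, 0 of 5 were called higher and 1 lower, and around Glycam1 on the same chromosome 0 of 9 were called in either direction.

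**Figure D4:**
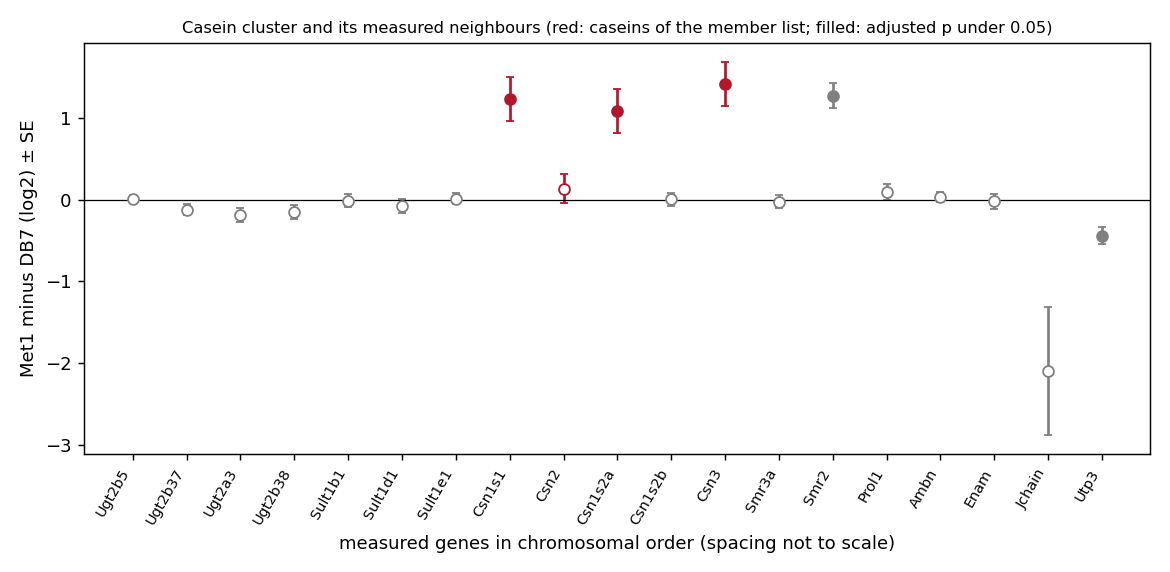
Difference Met1 minus DB7 (log2, ± SE) of the casein genes (red) and their measured neighbours (grey) in chromosomal order, filled where the adjusted p is under 0.05. Csn1s1, Csn1s2a, Csn3 and Smr2 lie above 0 and Jchain, not called, at -2.10, while most other genes between and around them lie near 0.

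Other proteins found in milk, some of them membrane proteins such as Muc15 and Ceacam1, were split. Of 12 measured, 5 were called higher in Met1 and 2 lower, against 8.25% and 10.7% of all genes. The other 5 were not called, and the median difference was -0.0042 against -0.05 over all genes. Muc15, a membrane mucin found in milk, Ltf, the iron-binding lactoferrin, and Lao1, an amino acid oxidase of milk, rose by 4.90, 4.47 and 4.22 (log2). Wfdc18, a relative of Wap by its protein domain, rose by 2.14 (SE 0.14), and the fifth was Muc1. Lpo, the milk peroxidase lactoperoxidase, went the other way, at 6.63, 6.57 and 7.04 in Met1, against 9.10, 9.26, 9.26 and 8.96 in DB7. It was 5.28-fold lower in Met1 without overlap (limma, adjusted p = 8.1e-06). Ceacam1, an adhesion molecule also found on milk fat globules, fell by 0.49 (SE 0.09), with other probe sets between -0.74 and -0.04.

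Of 9 measured enzymes and transporters that supply lactose synthesis, 1 was called higher, 2 lower and 6 not called, with a median of -0.24. Over all genes 8.25% were called higher and 10.7% lower, so these counts are close to the background. B4galt1, the enzyme that alpha-lactalbumin modifies, was 1.25-fold higher, at 9.63, 9.62 and 9.58 in Met1, against 9.22, 9.27, 9.41 and 9.24 in DB7 (limma, adjusted p = 0.0196). That call was lost without Met1 1 (adjusted p = 0.0685), Met1 2 (0.0773) or Met1 3 (0.0645), and without DB7 1 and DB7 4 together (0.0721). Hk2, a hexokinase, fell by 0.60 (SE 0.13) and Pgm2, a phosphoglucomutase family enzyme, by 0.36 (SE 0.11; adjusted p = 0.0478). The call of Hk2 was lost without Met1 3 (0.0686), and that of Pgm2 in 6 of the 7 fits without a single array, DB7 1 being the exception (adjusted p = 0.0762 to 0.156 in the 6).

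Of 10 milk fat globule genes, 3 were called higher and 0 lower, against 8.25% and 10.7% of all genes. The other 7 were not called, and the median was 0.52. It lay between Cd36 (0.52, SE 0.47) and Lpl (0.52, SE 0.42), neither of them called. Within Met1 both were lowest in Met1 1 and highest in Met1 2, the order of the adipocyte mean. The part of adipocytes in these values was not tested. Btn1a1, butyrophilin, rose 6.73-fold, while its dimmer probe sets differed by 0.15 and 0.42. Xdh, its partner on the globule membrane, rose 3.45-fold, and Dgat1, which makes triglyceride, 1.53-fold. Of 9 genes of casein phosphorylation and calcium supply, 3 were called higher, 0 lower and 6 not called, with a median of 0.18. Orai1, a calcium entry channel of the lactating gland, rose 1.91-fold, and the Golgi calcium pumps Atp2c2 and Atp2c1 rose 1.44-fold and 1.35-fold (limma, adjusted p = 0.000263, 0.0236 and 0.0392). The call of Atp2c2 was lost in 4 and that of Atp2c1 in 6 of the fits without a single array, the highest adjusted p being 0.106 (Met1 3 left out) and 0.131 (Met1 1 left out). Fam20c, the kinase of secreted caseins, differed by -0.12 (SE 0.12).

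Regulators of milk protein genes were called in both directions. Of 21 measured, 8 were called higher in Met1 and 1 lower, against 8.25% and 10.7% of all genes. The other 12 were not called, and the median was 0.12. Gata3, needed for luminal cells, and Elf5, needed for alveolar cells, rose by 1.58 (SE 0.10) and 1.46 (SE 0.15), although the second probe set of Elf5 differed by -0.07. Cebpb, which binds casein promoters, rose by 0.95 and Stat5a, which carries the prolactin signal, by 0.82, with a second probe set of Stat5a at 0.82 as well. Nr3c1, the glucocorticoid receptor, Nfib, Yy1 and Id2 completed the 8. Nr3c1 only just passed (limma, adjusted p = 0.0487). Not every other probe set of Nr3c1, Nfib and Yy1 was called, the lowest differences among these being 0.48, 0.12 and 0.18. Stat5b, a close relative of Stat5a, and Cish, a target and inhibitor of STAT5 signalling, differed by -0.02 (SE 0.08) and -0.01 (SE 0.11). Socs2, another inhibitor that prolactin and growth hormone induce, fell to 8.63, 8.08 and 7.94 in Met1, against 8.94, 10.07, 8.96 and 8.99 in DB7 (difference -1.02, SE 0.29; limma, adjusted p = 0.0375). It was no longer called when Met1 2 (0.142), Met1 3 (0.153), DB7 3 (0.0607) or DB7 4 (0.0537) was left out. The second probe set of Socs2 differed by -1.62 and was also called lower in the fit to all 7 arrays. The prolactin receptor gene was not analysed here.

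**Figure D5:**
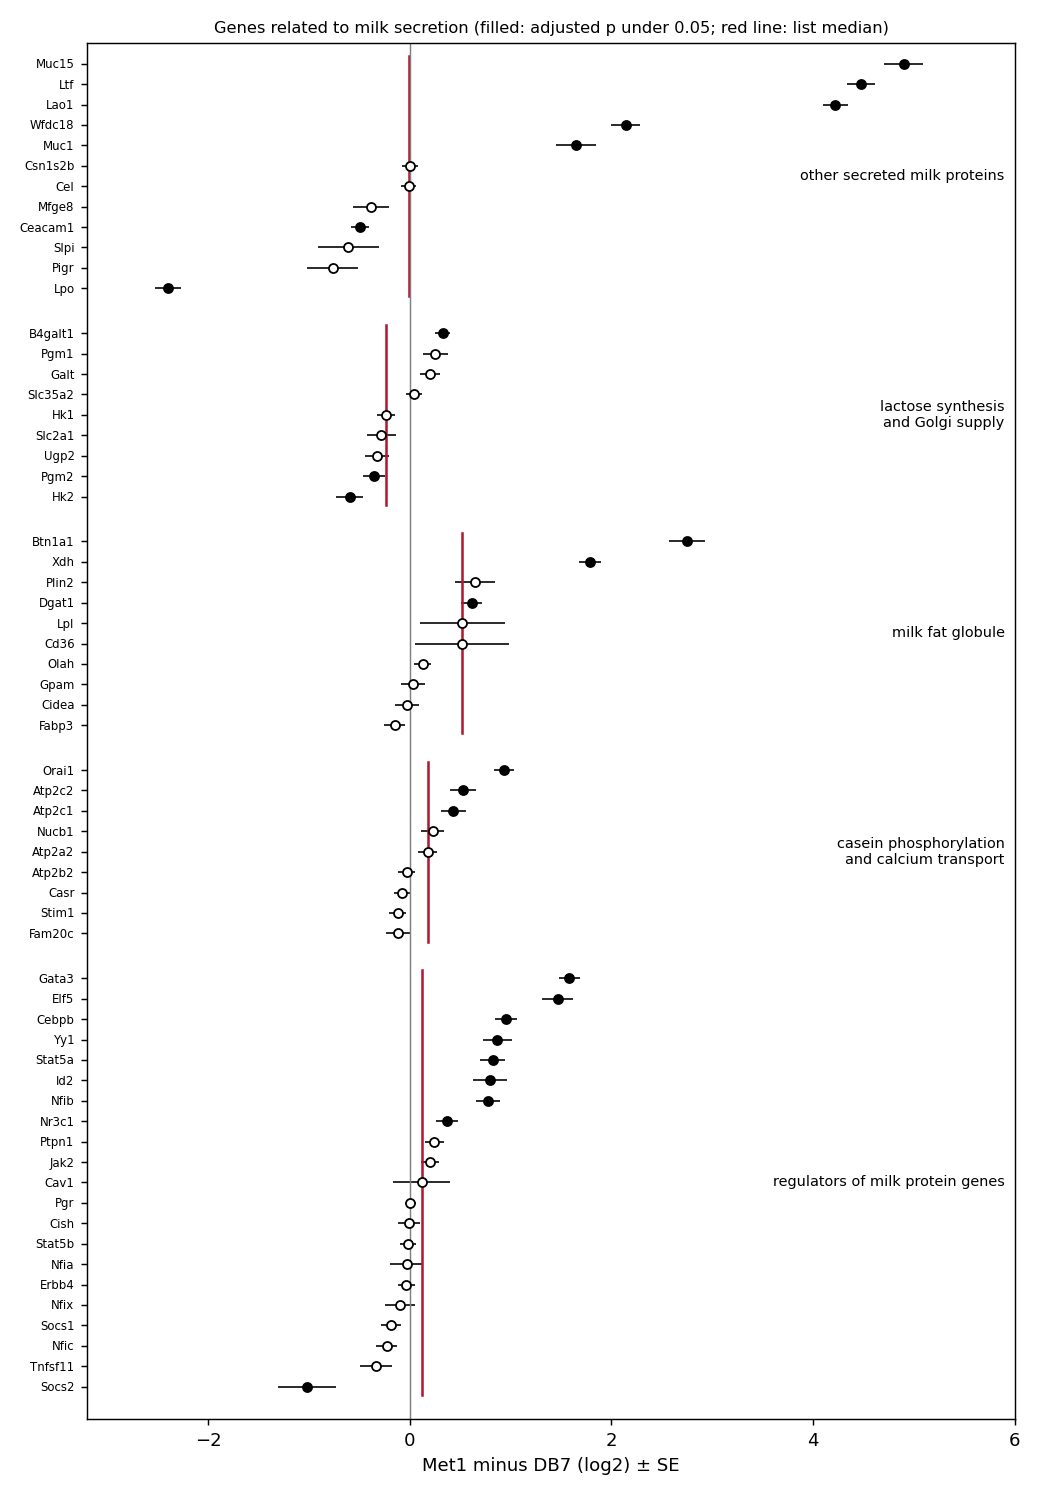
Difference Met1 minus DB7 (log2, ± SE) of each measured gene in 5 lists related to milk secretion, filled where the adjusted p is under 0.05, with the list median in red. Muc15, Ltf and Lao1 stand at the right and Lpo at the left, while the medians lie between -0.24 and 0.52.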

How the data were processed

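The authors deposited 1 table of log2 probe set values for 3 Met1 and 4 DB7 arrays, on a scale judged from their range. RMA and MAS5 are named per the submitters' processing notes, without saying which gave the values; the software versions are not given here, and no detection calls were used. Values were used as deposited. GEO's platform annotation gave 1 symbol to 20380 of the 22626 non-control probe sets, several to 691 and none to 1555. All 12 member probe sets kept their symbol through RefSeq gene identifiers (GRCm38.p6).

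Met1 minus DB7 was fitted with limma 3.58.1 in R 4.3.3 (lmFit, eBayes with intensity trend, group only, 7 arrays, two-sided), with Benjamini-Hochberg adjustment over 22626 probe sets. No intensity filter was applied, since 5 of the 12 member probe sets, from 4 genes, would pass the filter used as an alternative. The probe set with the highest mean stood for a gene in lists. The fit was tested on simulated data. Over all probe sets, deviations of samples with the same replicate number correlated between -0.17 and 0.05. Such correlations cannot exclude shared handling, so whether the numbers pair the samples is not known. Members, lists, the rule for named genes and the alternatives were chosen with earlier results of these data known. The rule took all members, up to 4 called genes per related list and direction, and the 3 closest profiles per member. Muc1, Nr3c1, Nfib, Yy1, Id2, Stat5b, Cish, Fam20c, the named marker genes and the chromosomal neighbours were chosen after their values were seen.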

Additional observations from a re-analysis of the deposited data

Results flagged for a closer look

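Chance sets a single array of 4 apart in about 1 of 20 groups by Dixon's test, and 5 of the 32 probe sets examined in DB7 were set apart. The 32 included genes picked by their call and several probe sets of 1 gene, all on the same arrays. They are not independent, so this count cannot show an excess over chance. DB7 2 was far above the other 3 DB7 arrays for the Csn2 probe set 1420369_a_at (5.76 against 4.71 to 4.80), for the Csn1s2a probe set 1436170_a_at (4.87 against 4.52 to 4.54) and for Socs2 (10.07 against 8.94 to 8.99). DB7 3 was far above the others for Atp2c2 (7.20 against 6.71 to 6.75) and far below them for Cebpb (9.30 against 9.64 to 9.71). The causes were not tested.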

How the results depend on the processing

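Lalba, Wap and the Csn3 probe set 1451851_a_at kept their direction and call under every alternative run in which they were tested. The run with the intensity filter says nothing further for Wap and 1451851_a_at. Both passed that filter only through the 3 Met1 arrays, the line in which they were high. Leaving out single arrays gave differences of 5.48 to 5.74 for Lalba, 4.67 to 5.44 for Wap, 2.46 to 2.75 and 1.12 to 1.54 for the Csn3 probe sets 1451851_a_at and 1419735_at, 0.86 to 1.55 for Csn1s1, 0.87 to 1.49 and 0.46 to 0.94 for the Csn1s2a probe sets 1436170_a_at and 1420633_a_at, and -1.63 to -0.57 for Glycam1. It gave -0.085 to 0.013 for Csn1s2a 1438694_at, -0.033 to 0.94 for Csn2 1420369_a_at and -0.088 to 0.26 for Csn2 1420370_s_at, so these changed sign.

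The member calls numbered 5 to 7 of 12 without single arrays, 3 when a 2-fold minimum was tested (limma treat) and 4 without DB7 1 and DB7 4 together. Over the whole array the counts were 4027 as reported, 2432 to 4135 without single arrays (2496 without Met1 2, 2432 without Met1 3) and 160 at the 2-fold minimum. Over the related lists they were 25, 19 to 25 and 8. At the 2-fold minimum Csn3 1419735_at (1.41), Csn1s1 (1.23), Csn1s2a 1436170_a_at (1.09) and 1420633_a_at (0.67) were not called, with adjusted p = 1 each, as that test asks for a larger change. Without DB7 1 and DB7 4, Csn1s1 (1.12, adjusted p = 0.0858) and these Csn1s2a probe sets (1.00, 0.118, and 0.62, 0.166) were not called. The sign of Csn1s2a 1438694_at, -0.03 as reported, turned after quantile normalization (0.0048) and median centring (0.0029); the causes were not tested.

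With the replicate number as a block, 6 member probe sets and 21 genes of the related lists were called; Csn1s2a 1420633_a_at was lost (0.64, adjusted p = 0.0613). Whether the numbers pair the samples is not known, and that fit takes nothing from DB7 4, which has no partner. Its SE for Csn2 1420369_a_at was 0.19, against 0.46 as reported, and for Wap 0.33, against 0.31. Among the related genes named, the calls of Atp2c2 and Atp2c1 were also lost without DB7 1 and DB7 4 (adjusted p = 0.134 and 0.108), that of Socs2 after median centring (0.0509), and that of Pgm2 after quantile normalization (0.0686) and median centring (0.0711). The 7 arrays and the lack of detection calls limit what can be said of dim probe sets.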
